A study of Mus musculus with 16 samples.

Results

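Interferon-stimulated genes were followed across 4 subsets of lymph node regulatory T cells (Treg), fresh and after 3 days in a suppression assay. The set holds 46 listed genes with functions in the interferon response, grouped by role into nucleic acid sensors, transcription factors, antiviral effectors, the ISG15 system, ubiquitin and ADP-ribose enzymes, guanylate-binding and immunity-related GTPases, antigen processing and 1 chemokine. A gene was measured where a probe set is annotated to its symbol alone, and the brightest such probe set stood for it. This gave 41 of the 46 genes, out of 19938 genes measured in all. Isg15, Gbp2, Igtp and Irgm2 each share their probe set with other symbols, Ifi44 has none, and these 5 are not analysed here.

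Interferons act at low concentrations on most nucleated cells. Type I interferons bind Ifnar1 and Ifnar2 and, through the kinases Jak1 and Tyk2, lead to transcription from interferon-stimulated response elements; interferon gamma binds Ifngr1 and Ifngr2 and leads to transcription from gamma-activated sites. Many members answer to both, so the expression of a member does not tell the interferon types apart. In T cells, resting lymph node cells already carry a low, tonic expression of many of these genes.

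The cells came from pooled lymph nodes of female C57BL/6 mice aged 8 to 12 weeks. Treg were divided by surface CD103, the integrin chain encoded by Itgae, and by ICOS, a costimulatory receptor. This gave double-negative and double-positive cells, and cells positive for CD103 or ICOS alone (CD103 single-positive, ICOS single-positive). Each subset was measured fresh and after the assay (activated), in which 200000 Treg of 1 subset were cultured for 3 days with 1000000 Ly5.1 naive CD4 T cells, 2000000 irradiated Rag2-/- splenocytes and 0.5 ug/ml anti-CD3. Activated Treg were recovered by a second sort as Ly5.1-negative, CD4-positive, CD25-positive cells. This second sort did not use CD103 or ICOS, so the names of the activated subsets give the class before culture. The mice are labelled wild type, and no group carries a deletion or a drug treatment. There were 8 groups of 2 arrays, 16 in all, each labelled as a biological replicate, and each array received 270 ng of RNA.

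Promoters are shown for 6 members, those of the genes followed by role below that hold a match to one of 2 motifs and have the largest difference by ICOS in their change on activation. Of these, Ifit1, Trim12a, Gbp3 and Trim30a fell on activation in the ICOS-negative subsets. Trim12a also fell in the average of the ICOS-positive subsets. Gbp5 fell in the ICOS-negative and rose in the ICOS-positive subsets, and Cxcl10 is the 1 measured chemokine. With all arrays the difference in change passed for Ifit1 and Gbp5, and not for Trim12a, Gbp3, Trim30a or Cxcl10. That of Cxcl10 changed sign without one array. The sequences are from RefSeq, build GRCm38.p6, and run from 250 bases before to 50 after the annotated start, 5′ to 3′ on the strand of the gene. Capitals mark matches on either strand to the core of an interferon-stimulated response element (the ISRE core, GAAA followed after any 2 bases by a second GAAA) or to TTCNNNGAA, the core of a gamma-activated site.
Ifit1, chr19:34640639-34640938, plus strand: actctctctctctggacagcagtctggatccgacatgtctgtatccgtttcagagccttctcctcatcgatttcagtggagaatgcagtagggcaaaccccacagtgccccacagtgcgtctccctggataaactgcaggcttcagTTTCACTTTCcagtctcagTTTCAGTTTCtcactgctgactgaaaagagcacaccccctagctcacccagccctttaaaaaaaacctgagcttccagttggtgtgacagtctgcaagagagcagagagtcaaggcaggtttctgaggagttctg
Trim12a, chr7:104315446-104315745, minus strand: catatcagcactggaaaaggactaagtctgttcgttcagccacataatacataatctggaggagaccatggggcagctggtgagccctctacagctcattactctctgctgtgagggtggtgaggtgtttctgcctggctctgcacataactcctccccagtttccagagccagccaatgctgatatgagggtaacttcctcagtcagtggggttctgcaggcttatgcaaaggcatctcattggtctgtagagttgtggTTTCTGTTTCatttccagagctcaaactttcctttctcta
Gbp3, chr3:142559794-142560093, plus strand: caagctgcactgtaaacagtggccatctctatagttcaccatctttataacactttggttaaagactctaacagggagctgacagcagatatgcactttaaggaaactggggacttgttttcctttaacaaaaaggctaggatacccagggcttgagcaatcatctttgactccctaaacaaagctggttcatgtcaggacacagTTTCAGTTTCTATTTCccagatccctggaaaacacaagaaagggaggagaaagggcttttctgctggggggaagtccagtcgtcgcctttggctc
Gbp5, chr3:142496684-142496983, plus strand: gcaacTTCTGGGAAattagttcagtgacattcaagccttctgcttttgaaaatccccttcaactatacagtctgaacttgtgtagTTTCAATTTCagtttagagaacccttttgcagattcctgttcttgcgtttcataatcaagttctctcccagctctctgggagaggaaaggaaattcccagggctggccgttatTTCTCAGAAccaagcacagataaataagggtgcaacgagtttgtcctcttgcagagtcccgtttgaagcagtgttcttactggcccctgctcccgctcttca
Trim30a, chr7:104446076-104446375, minus strand: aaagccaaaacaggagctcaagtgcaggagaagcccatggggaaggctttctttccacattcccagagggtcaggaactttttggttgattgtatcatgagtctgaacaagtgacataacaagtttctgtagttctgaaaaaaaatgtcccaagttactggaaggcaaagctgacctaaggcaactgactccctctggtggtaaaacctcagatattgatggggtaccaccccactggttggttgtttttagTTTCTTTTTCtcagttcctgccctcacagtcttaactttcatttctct
Cxcl10, chr5:92348840-92349139, minus strand: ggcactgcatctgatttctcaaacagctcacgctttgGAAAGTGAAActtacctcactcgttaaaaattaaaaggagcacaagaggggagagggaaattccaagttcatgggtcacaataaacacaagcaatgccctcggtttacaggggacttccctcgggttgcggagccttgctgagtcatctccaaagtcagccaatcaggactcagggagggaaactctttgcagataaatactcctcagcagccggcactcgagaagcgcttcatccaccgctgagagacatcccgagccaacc
The Ifit1 window holds 2 separate ISRE core matches, and the Gbp3 window holds 2 that overlap each other. Gbp5 has 1 match to the ISRE core and 2 to TTCNNNGAA, and the other 3 windows have 1 match to the ISRE core each. The 2 motifs did not overlap in any of these windows. Of the 41 members, 31 had a promoter window, and some genes had more than 1. The ISRE core was in the windows of 16 of these 31 genes (51.6%), against 3.99% of all genes with a window. TTCNNNGAA was in 11 of 31 (35.5%), against 9.55% of all genes. Among the members that fell on activation in ICOS-negative cells, 10 of 18 with a window (55.6%) held the ISRE core, and 6 of the 13 other members did (46.2%). TTCNNNGAA was in 5 of the 18 (27.8%) and in 6 of the 13 (46.2%). Neither split was tested. A match describes these letters only and shows no binding.

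The values are log2 intensities, so a difference of 1 is a 2-fold difference. A member passed the test where limma gave a Benjamini-Hochberg adjusted p below 0.05 over all 19938 genes, and "rose", "fell", "higher" and "lower" in counts refer to members that passed. Counts at an unadjusted p below 0.05 come without the share of all genes at that threshold, and no excess is read from them. With 2 arrays per group the p-values rest on the spread between replicates pooled over the 8 groups. The replicate number is not in this fit, and with it as a block more members passed in several comparisons (counts given below). The mean over the 16 arrays was above the median of all values for 38 of the 41 members. Mx1, Mx2 and Rsad2 were below it and are dim. Foxp3, the transcription factor that defines Treg, lay between 11.69 and 12.84 on 15 arrays. On replicate 2 of the activated ICOS single-positive cells it was 8.53, against 12.64 on replicate 1, and Itgae (6.31 against 10.00) and Icos (11.25 against 12.88) were lower there too. This subset is labelled CD103-negative, but Itgae on replicate 1 was above both activated CD103 single-positive arrays (9.94 and 9.87). The activated double-negative arrays had 7.305 and 7.95. Against its partner, replicate 2 of the activated ICOS single-positive cells had lower values for all 14 genes of a Treg core list (median -1.71), and higher ones for 7 of 9 CD8 T and NK cell genes (median 0.97, with Klrd1 at 10.47 and Nkg7 at 12.38). It is called here the array with low Foxp3. Between this array and its partner 8 members differed by more than 2-fold, against 0 to 4 members between the replicates of the other groups. The counts of members that passed are given with and without the array where they use it, with the calls that it changed, and the part of its cell composition in them was not tested. Shares of all genes come from the fit on all 16 arrays. Counts from fits without an array have no share of their own beside them and are not read against one. Without the array with low Foxp3, the activated ICOS single-positive level is that of replicate 1 alone, and the gap of this pair leaves the pooled spread. Differences among fresh cells do not use activated arrays, so leaving one out alters only the pooled spread behind their p-values. On activated double-negative replicate 2, Ifng (10.16 against 6.83 on replicate 1) and Nkg7 (11.94) were also high. Icos was at 11.63 to 12.12 on the activated ICOS-negative arrays, against 10.40 to 11.47 on the fresh ones. Apart from the array with low Foxp3, the activated ICOS-positive arrays had 12.87 to 12.91.

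As a group, the interferon-stimulated genes lost expression on activation in the ICOS-negative subsets and did not in the ICOS single-positive subset. The level of the set on an array was taken as the median over the 41 members of the log2 level relative to the gene's own mean over all arrays. It was 0.18 and 0.20 on the 2 fresh double-negative arrays, 0.06 and 0.11 on the CD103 single-positive, -0.02 and -0.03 on the ICOS single-positive, and 0.22 and 0.24 on the double-positive arrays. The fresh arrays thus lay within a narrow band, with the ICOS single-positive pair at its lower edge. After activation the set level was -0.48 and -0.32 in double-negative cells, -0.68 and -0.33 in CD103 single-positive cells, 0.38 and 0.33 in ICOS single-positive cells and -0.01 and 0.06 in double-positive cells. All 4 activated ICOS-negative arrays were below all 12 others, and both activated ICOS single-positive arrays were above all others. The array with low Foxp3 differed little from its partner in this measure, with 33 and 34 of the 41 members above their own mean. In activated CD103 single-positive cells only 4 and 10 members were above their mean. The same median over all genes stayed between -0.05 and 0.06 on every array. In bulk RNA, fewer cells expressing a gene and less RNA per cell cannot be told apart.

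**Figure D1:**
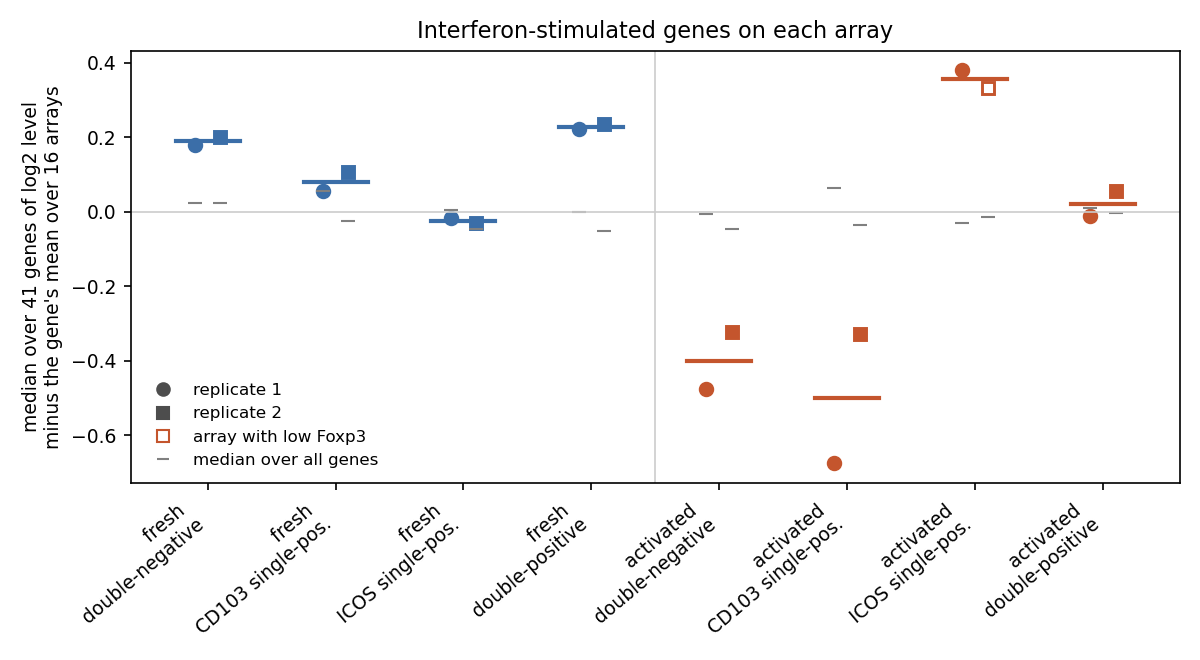
Median over the 41 interferon-stimulated genes of the log2 level relative to each gene's mean over the 16 arrays (y axis), for the 4 subsets fresh and activated (x axis), with 1 point per array (circle replicate 1, square replicate 2, open square the array with low Foxp3), a line at the mean of the 2 arrays and a grey dash at the median over all genes. The fresh arrays sit between -0.03 and 0.24, the activated ICOS-negative arrays between -0.68 and -0.32, and the activated ICOS single-positive arrays at 0.38 and 0.33.

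In the ICOS-negative subsets, 25 of 41 members fell on activation, where 14.1% of all genes fell, and 3 rose, where 14.5% of all genes rose. The median member changed by -0.67, and the median over all genes was -0.04. The largest falls were those of Ifit1 (8.66-fold) and Ifit3 (6.79-fold), which bind viral RNA ends or assist in it, of Trim12a (5.17-fold), a TRIM ubiquitin ligase family member, and of Rtp4 (4.39-fold), an interferon-induced restrictor of RNA viruses. The 3 members that rose were Irf8, a transcription factor, and the immunoproteasome subunits Psmb8 and Psmb9. For 24 members all 4 activated arrays lay below all 4 fresh arrays, which 14.9% of all genes did. For 3 members (Irf8, Psmb8 and Psmb9) they all lay above, again with 14.9% of all genes. The fall was present in each subset by itself: 17 members fell in double-negative cells (7.59% of all genes) with a median of -0.60, and 14 fell in CD103 single-positive cells (10% of all genes) with a median of -0.54. In each of these subsets 2 members, Irf8 and Psmb8, rose (8.65% and 10.2% of all genes). The count of 19 changed members in double-negative cells dropped to 11 (10 lower) without fresh replicate 2 or without activated replicate 1, and that of 16 in CD103 single-positive cells to 9 (8 lower) without fresh replicate 2.

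In the ICOS-positive subsets, 6 of 41 members rose on activation, where 5.57% of all genes rose, and 5 fell, where 9.03% of all genes fell. The median member changed by 0.04. Irgm1, an immunity-related GTPase, rose by 0.76 (log2), Zbp1, a sensor of Z-form nucleic acid, by 0.65, Psmb9 by 0.62, Gbp5, a guanylate-binding protein that acts in inflammasome responses, by 0.57, and the transcription factors Stat2 and Irf1 by 0.47 and 0.32. The members that fell were Ifit3 (-1.66), Trim12a (-1.11), Mx1 (-0.78), Oasl2 (-0.61) and Rsad2 (-0.39). These changes are averages over the ICOS single-positive and double-positive subsets. In ICOS single-positive cells the mean of Trim12a was 9.316 fresh and 9.634 activated, and that of Rsad2 was 6.665 and 6.766. Both activated means include the array with low Foxp3. For 8 members all 4 activated arrays were above all 4 fresh arrays (7.94% of all genes) and for 1, Ifit3, all were below (8.64%). Without the array with low Foxp3, 7 members rose and 4 fell, and the median member changed by 0.18 instead of 0.04. Then Oas2, Gbp3 and Gbp7 passed as higher and Ifit2 as lower, while Irf1, Stat2, Oasl2 and Rsad2 no longer passed. Zbp1, Psmb9 and Ifit3 passed in all 16 fits that each left out 1 array. Irgm1 was lost without fresh double-positive or ICOS single-positive replicate 1 or activated double-positive replicate 2, Mx1 without activated double-positive replicate 1 or replicate 2 of either fresh ICOS-positive subset, Oasl2, besides the array with low Foxp3, without replicate 1 of either fresh ICOS-positive subset, and Rsad2, besides that array, without replicate 2 of either or activated double-positive replicate 1. The count of 11 changed members dropped to 6 without either fresh ICOS single-positive array and to 7 without fresh double-positive replicate 2.

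The change was also fitted within each ICOS-positive subset, and the difference between the 2 subsets was not tested. In ICOS single-positive cells 4 members rose (Zbp1, Psmb9, Irf1 and Dtx3l, by 0.86, 0.70, 0.64 and 0.62), where 1.03% of all genes rose. There 0 fell (1.06% of all genes did), and the median was 0.33. An unadjusted p below 0.05 in limma was found for 12 of 41, counted in either direction and without the share of all genes. In double-positive cells 10 members fell (8.7% of all genes), led by Ifit3 (-2.75), Trim12a (-2.54), Ifit1 (-1.45) and Mx1 (-1.12), and Psmb9 alone rose (0.53; 5.36% of all genes did), with a median of -0.06. The count of 4 rises in ICOS single-positive cells was again 4 without the array with low Foxp3. It was 0 without either fresh ICOS single-positive array, and 1 or 2 without any of several others: fresh CD103 single-positive or double-positive replicate 1 or 2, activated CD103 single-positive replicate 1 or 2, and activated ICOS single-positive replicate 1. The count of 11 changed members in double-positive cells was 4 to 6 without any one of the 4 double-positive arrays.

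The change on activation was more positive in ICOS-positive than in ICOS-negative cells for 11 of 41 members, where 2.06% of all genes passed in that direction, and more negative for 0, where 4.65% of all genes passed. The difference was positive for 36 of 41 members, and its median was 0.56 against 0.05 for all genes. Each comparison shares no array with the other, as the 4 subsets have their own fresh and activated arrays. With all arrays the 11 members split as follows. Zbp1, Irf1 and Gbp5 fell in ICOS-negative and rose in ICOS-positive cells, although the rise of Irf1 passed in only 2 of 16 fits that each left out 1 array. On the dimmer probe set of Irf1 the activated ICOS-positive values lay within the range of the fresh ones. Dhx58, Irf7, Irf9, Ifit1, Oasl1, Samhd1 and Xaf1 fell in ICOS-negative cells and did not pass in ICOS-positive cells. Oasl2 fell in both, by -1.59 and -0.61. A further 14 members fell in ICOS-negative cells without a difference that passed. Of these, Ifit3, Rsad2 and Trim12a also passed as lower in the average of the ICOS-positive subsets. In ICOS single-positive cells, however, the means of Rsad2 and Trim12a did not go down. Ifih1, Ddx58, Ifit2, Mx2, Oas2, Rtp4, Parp14, Trim30a, Gbp3, Gbp4 and Gbp7 passed only in ICOS-negative cells, which does not show that they differ by ICOS.

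Without the array with low Foxp3, 13 members passed for the difference and the median was again 0.56. Of the 11, 9 passed without it, and Dhx58 (adjusted p = 0.0561 in limma) and Irf7 (adjusted p = 0.0762) did not. Oas2 (1.59), Rtp4 (2.63), Gbp3 (1.49) and Gbp7 (1.36) passed only without it. The split was then different. Zbp1, Oas2, Gbp3, Gbp5 and Gbp7 fell in ICOS-negative and rose in ICOS-positive cells, and the other 8 (Irf1, Irf9, Ifit1, Oasl1, Oasl2, Samhd1, Rtp4 and Xaf1) fell in ICOS-negative cells and did not pass in ICOS-positive cells. Zbp1 and Gbp5 were the members that fell and rose in both versions. On this array Rtp4 was at 7.61 against 9.51 on its partner, and Oas2, Gbp3 and Gbp7 were lower than on the partner as well. Without it their calls rest, for activated ICOS single-positive cells, on replicate 1 alone. The pooled spread then no longer holds the gap of this pair.

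**Figure D2:**
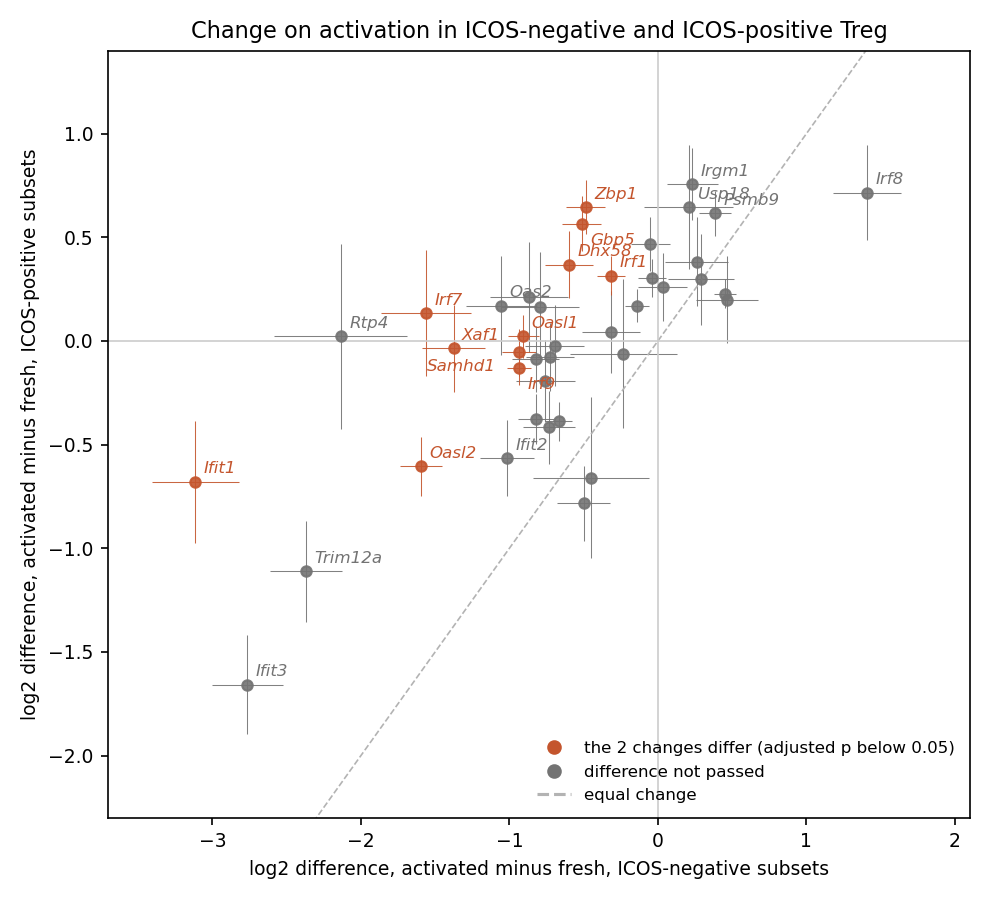
Change on activation (activated minus fresh, log2) in the ICOS-negative subsets (x axis) against that in the ICOS-positive subsets (y axis), with 1 point per interferon-stimulated gene, bars of 1 standard error and colour for the members whose 2 changes differ at an adjusted p below 0.05. Of the 41 members 36 lie above the diagonal of equal change, with Ifit1, Ifit3 and Trim12a at the far left.

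Among fresh cells the ICOS-positive and ICOS-negative subsets differed in few members. Rsad2, a dim member that makes an antiviral nucleotide, was higher in ICOS-positive cells (0.43, adjusted p = 0.0185 in limma), where 4.1% of all genes were higher. Usp18, Oasl2 and Oasl1 were lower (2.43% of all genes). All 4 fresh ICOS-positive arrays were above all 4 fresh ICOS-negative arrays for 3 members (5.78% of all genes) and below for 4 (7.28%). The median member differed by -0.06 and the median gene by -0.05. These 4 calls became 1 or 2 without fresh CD103 single-positive replicate 1 or without replicate 2 of the fresh double-negative, ICOS single-positive or double-positive cells, and 8 without either activated ICOS single-positive array; Oasl1 passed in all 16 fits that each left out 1 array. After activation 18 of 41 members were higher in the ICOS-positive subsets, where 1.94% of all genes were, and 0 were lower, where 5% of all genes were, with a median of 0.48. For 18 members all 4 activated ICOS-positive arrays were above all 4 activated ICOS-negative arrays (2.6% of all genes), and for 0 were they all below (8.27%). The largest of these differences were those of Ifit1 (2.05), Rtp4 (1.93), Irf7 (1.49) and Zbp1 (1.16). The count of 18 was 17 without the array with low Foxp3, with 1 member (Usp18) lower. It was 8 without activated double-positive replicate 2, 9 without activated CD103 single-positive replicate 1 and 11 without activated double-negative replicate 1.

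Few members passed for CD103. Among activated cells the difference by CD103 was negative for 31 of 41 members, with a median of -0.18 against 0.03 for all genes. In fresh cells 0 of 41 members differed by CD103 with limma (0.206% of all genes did, 0.14% as higher and 0.0652% as lower), 5 had an unadjusted p below 0.05, and without the array with low Foxp3 2 were higher (Gbp3 and Gbp7) and 1 lower (Oas2). In activated cells 1 member, Trim12a, was lower in CD103-positive cells, by -1.73 (adjusted p = 0.0119; 0.517% of all genes were lower) and 0 were higher (0.201%). Its levels were 8.42 and 8.00 in activated double-negative and 9.13 and 10.14 in ICOS single-positive cells, against 7.22 and 7.68 in CD103 single-positive and 7.12 and 6.75 in double-positive cells, and the arrays of the 2 kinds did not overlap. It was the 1 member with all 4 activated CD103-positive arrays below all 4 CD103-negative ones (2.04% of all genes), and 0 were all above (2.19%). In fresh cells 3 members had all CD103-positive arrays above (1.38% of all genes) and 1 all below (1.29%). The call was lost without activated CD103 single-positive replicate 1 and without activated double-positive replicate 2. The ICOS difference in the change on activation was then taken within each CD103 class, in comparisons added after the data had been seen. Among CD103-negative subsets 12 members had a more positive change with ICOS (1.71% of all genes) and 0 a more negative one (3.54%), and the median was 0.89. Among CD103-positive subsets 1 member had, Gbp5 (1.38, adjusted p = 0.0429 in limma; 0.135% of all genes), 0 had a more negative one (0.632%), and the median was 0.20. These counts were 12 and 2 without the array with low Foxp3, the second with Gbp3 added (1.54, adjusted p = 0.00601, against 0.41 with all arrays, in limma). The test of one difference against the other was negative for 35 of 41 members, with a median of -0.66, and 0 passed (0.00502% of all genes did), while 13 had an unadjusted p below 0.05. The share of all genes at this unadjusted threshold is not given. In the fit without that array 1 member passed this test, Oas2 (-2.62, adjusted p = 0.0259 in limma; -1.89 and 0.999 with all arrays). With all arrays no dependence of the ICOS difference on CD103 was detected for any member. In activated cells alone, 9 members were higher with ICOS among CD103-negative cells (0.878% of all genes) and 0 lower (1.18%). Among CD103-positive cells 0 were higher (0.0802%) or lower (0.0602%), and 16 had an unadjusted p below 0.05; without the array with low Foxp3 the counts of higher members were 8 and 5, and 1 was lower among CD103-positive cells.

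**Figure D3:**
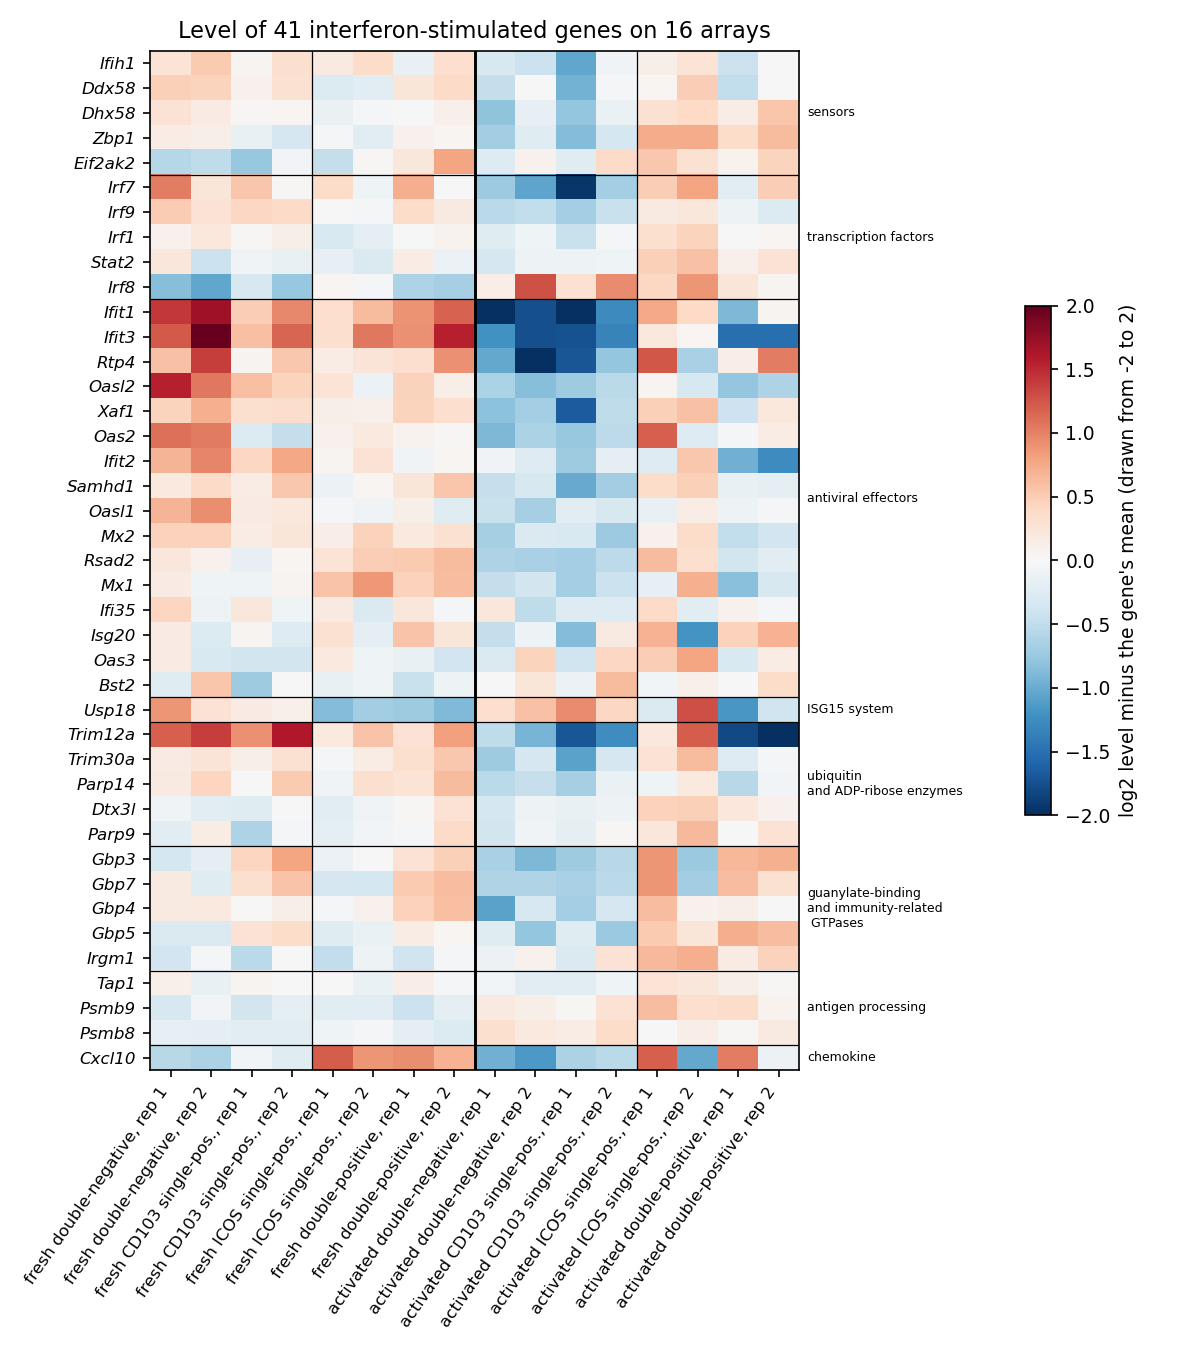
Log2 level of each measured interferon-stimulated gene (rows, grouped by role) on each of the 16 arrays (columns, with a thick line between fresh and activated), relative to the gene's mean over the arrays; red is above and blue below the mean. The activated double-negative and CD103 single-positive columns are low for most rows, and Irf8, Psmb8 and Psmb9 run the other way.

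Of the 5 sensors of foreign or displaced nucleic acid, 4 (Zbp1, Dhx58, Ifih1 and Ddx58) fell on activation in ICOS-negative cells, where 14.1% of all genes fell. In ICOS-positive cells 1 of the 5, Zbp1, rose, where 5.57% of all genes rose. Zbp1 was at 10.41 and 10.39 on the fresh double-negative, 10.12 and 9.94 on the CD103 single-positive, 10.24 and 10.05 on the ICOS single-positive and 10.35 and 10.31 on the double-positive arrays. The activated values were 9.57 and 10.03, 9.39 and 9.92, 11.01 and 11.00 and 10.63 and 10.89 in the same order. All 4 activated ICOS-positive arrays were above every other array, while in ICOS-negative cells 1 activated array (double-negative replicate 2) overlapped the fresh ones. The change was -0.49 (SE 0.13, adjusted p = 0.0156) in ICOS-negative and 0.65 (SE 0.13, adjusted p = 0.00764) in ICOS-positive cells, and the difference was 1.13 (adjusted p = 0.00458) with limma and 1.13 without the array with low Foxp3. The fall was lost without fresh CD103 single-positive replicate 1 or activated double-negative or CD103 single-positive replicate 1. Dhx58, also called LGP2, modulates the RNA helicase sensors Ddx58 (RIG-I) and Ifih1 (MDA5). Its fresh levels were 8.57 and 8.44 in double-negative, 8.30 and 8.32 in CD103 single-positive, 8.14 and 8.24 in ICOS single-positive and 8.29 and 8.38 in double-positive cells. After activation they were 7.48 and 8.11 in double-negative, 7.50 and 8.14 in CD103 single-positive, 8.58 and 8.68 in ICOS single-positive and 8.43 and 8.84 in double-positive cells. Every activated ICOS-positive array was thus above every activated ICOS-negative array. Its fall in ICOS-negative cells (-0.60) was lost without fresh or activated double-negative replicate 1 or activated CD103 single-positive replicate 1. Ddx58 fell by 0.70 and Ifih1 by 0.76 in ICOS-negative cells, and their changes in ICOS-positive cells, -0.02 and -0.19, did not pass. Eif2ak2, the kinase PKR, passed in no comparison, with changes of 0.47 and 0.20.

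Of the 5 transcription factors, Irf7, Irf9 and Irf1 fell (14.1% of all genes did) and Irf8 rose (14.5%) in ICOS-negative cells. Irf7 amplifies interferon production and is itself interferon-induced. It was at 10.21 and 9.44 in fresh double-negative, 9.75 and 9.21 in CD103 single-positive, 9.57 and 9.11 in ICOS single-positive and 9.93 and 9.21 in double-positive cells. After activation it was at 8.47 and 8.14, 7.26 and 8.51, 9.68 and 9.99 and 8.98 and 9.69 in that order. The 4 activated ICOS-negative arrays were below all others, and 3 of the 4 activated ICOS-positive arrays lay within the fresh range. Irf7 fell 2.95-fold in ICOS-negative cells (SE 0.30 log2, adjusted p = 0.00231) and the change in ICOS-positive cells was 0.13 (adjusted p = 0.832 in limma). Irf9, the DNA-binding part of the type I interferon complex, had small replicate gaps. Its fresh levels were 10.50 and 10.27 in double-negative, 10.40 and 10.36 in CD103 single-positive, 9.99 and 9.96 in ICOS single-positive and 10.35 and 10.17 in double-positive cells. The activated levels were 9.44 and 9.50, 9.30 and 9.53, 10.16 and 10.21 and 9.88 and 9.70. Irf9 fell by 0.94 in ICOS-negative cells (adjusted p = 8.39e-06), and its difference by ICOS was 0.80 (SE 0.12, adjusted p = 0.00225 in limma). Stat2, its partner, was higher in activated ICOS-positive cells by 0.52, and its change in ICOS-negative cells, -0.05, did not pass.

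Irf1, which answers most strongly to interferon gamma, moved little: its changes were -0.32 and 0.32, both past the test with all arrays. Irf1 has another, dimmer probe set of its own. On it the activated ICOS-positive values (6.973 to 7.555) lay within the range of the fresh ones (6.785 to 7.832). The activated ICOS-negative values (6.736 to 7.092) lay below the fresh ones (7.344 to 7.951). The calls for Irf1 given here are those of the brighter probe set. The fall was lost without replicate 2 of either fresh ICOS-negative subset or replicate 1 of either activated one. The rise in ICOS-positive cells passed in only 2 of 16 fits that each left out 1 array, those without activated CD103 single-positive replicate 1 or 2. Stat2 passed there in 10 of 16, and was lost without either fresh or either activated ICOS single-positive array or without fresh or activated double-positive replicate 2. Irf8 went against the other factors. Its levels were 8.83 and 8.65 in fresh double-negative and 9.37 and 8.93 in fresh CD103 single-positive cells, and 9.82 and 10.96 and 9.99 and 10.64 after activation, with no overlap. The rise was 2.65-fold (SE 0.23 log2, adjusted p = 7.44e-04), and that in ICOS-positive cells, 0.72, did not pass (adjusted p = 0.0628 in limma).

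The 16 antiviral effectors held the largest changes. In ICOS-negative cells 11 fell (14.1% of all genes did) and 0 rose (14.5%), with a median of -0.92. In ICOS-positive cells 4 fell (9.03% of all genes) and 0 rose (5.57%), with a median of -0.06. For the difference 5 passed (Ifit1, Xaf1, Oasl2, Oasl1 and Samhd1), all more positive with ICOS (2.06% of all genes). The 4 falls were 3, with 1 rise, and the 5 were 7 without the array with low Foxp3. Ifit1 was at 9.53 and 9.80 in fresh double-negative, 8.60 and 9.07 in CD103 single-positive, 8.45 and 8.74 in ICOS single-positive and 9.01 and 9.29 in double-positive cells. After activation the values were 5.92 and 6.36, 5.43 and 6.84, 8.87 and 8.51 and 7.22 and 8.17. The 4 activated ICOS-negative arrays were the lowest of all 16, the activated double-positive pair came next, and the activated ICOS single-positive pair lay among the fresh arrays. Ifit1 changed by -3.12 in ICOS-negative cells (SE 0.29, adjusted p = 1.44e-05) and by -0.68 in ICOS-positive cells (adjusted p = 0.162), and the difference was 2.44 (SE 0.42, adjusted p = 0.00595 in limma).

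Ifit3, a partner of Ifit1 in RNA binding, fell in both kinds of cells. It was at 8.75 and 9.54, 8.13 and 8.70, 7.85 and 8.59 and 8.45 and 9.09 in the fresh subsets, in the order used for Ifit1. Activated levels were 6.32 and 5.77, 5.78 and 6.19, 7.74 and 7.57 and 6.02 and 6.02. Every activated array lay below every fresh one. Within activated cells the double-positive pair sat with the ICOS-negative arrays and the ICOS single-positive pair stood above them. Ifit3 therefore fell by 2.76 in ICOS-negative cells and by 1.66 in ICOS-positive cells (adjusted p = 0.00124 in limma), and the difference, 1.11, did not pass (adjusted p = 0.0839).

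Among the 2′-5′ oligoadenylate synthetase relatives, Oasl1, which represses the translation of Irf7, and Oasl2 were lower in fresh ICOS-positive cells and fell on activation in ICOS-negative cells. Oasl2 was at 8.59 and 8.10 in fresh double-negative, 7.64 and 7.49 in CD103 single-positive, 7.32 and 6.93 in ICOS single-positive and 7.52 and 7.19 in double-positive cells. After activation its levels were 6.42 and 6.20, 6.33 and 6.50, 7.10 and 6.73 and 6.27 and 6.43. The fresh double-negative arrays were the highest, the fresh CD103 single-positive arrays overlapped the double-positive ones, and the activated ICOS-positive and ICOS-negative arrays overlapped as well. Oasl2 differed between fresh ICOS-positive and ICOS-negative cells by -0.72 (adjusted p = 0.0115) and between the activated ones by 0.27 (adjusted p = 0.346 in limma), so its difference in change, 0.99, held a part that was present before activation. The fresh call of Oasl2 was lost without fresh ICOS single-positive or double-positive replicate 2. Oasl1 differed by -0.56 in fresh cells (adjusted p = 0.00863), with no overlap between the ICOS classes, and by 0.93 for the change. Oas2 was at 8.37 and 6.91 in activated ICOS single-positive cells, the second value being that of the array with low Foxp3. The activated ICOS-negative arrays had 6.27 to 6.64, and its fall there was 1.05 (adjusted p = 0.00583). Oas3 passed in none of the comparisons by ICOS.

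Rtp4 fell far but with wide gaps between replicates. It was at 8.86 and 9.65 in fresh double-negative, 8.33 and 8.81 in CD103 single-positive, 8.41 and 8.52 in ICOS single-positive and 8.61 and 9.19 in double-positive cells. Activated levels were 7.25 and 5.80, 6.56 and 7.50, 9.51 and 7.61 and 8.41 and 9.30. The activated ICOS-negative arrays were the lowest 4, but the array with low Foxp3, at 7.61, came close to them. Its change was -2.14 in ICOS-negative cells (SE 0.45, adjusted p = 0.00373) and its difference by ICOS, 2.16, had an adjusted p of 0.0714 in limma, and of 0.0179 without that array. Xaf1, a pro-apoptotic antagonist of the inhibitor XIAP, fell by 1.38, and Samhd1, which degrades deoxynucleotides, by 0.94, both without a change that passed in ICOS-positive cells. Rsad2 fell by 0.67 without ICOS and by 0.39 with it, from a higher fresh level in the latter. The fall with ICOS is an average in which the ICOS single-positive mean was 6.665 fresh and 6.766 activated. Mx1, an antiviral GTPase, fell in ICOS-positive cells (-0.78) and changed by -0.50 without passing in ICOS-negative cells. Mx2 and Ifit2 fell in ICOS-negative cells by 0.82 and 1.01. The exonuclease Isg20, the membrane tether Bst2 and Ifi35 passed in none of the comparisons by ICOS or activation given here.

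**Figure D4:**
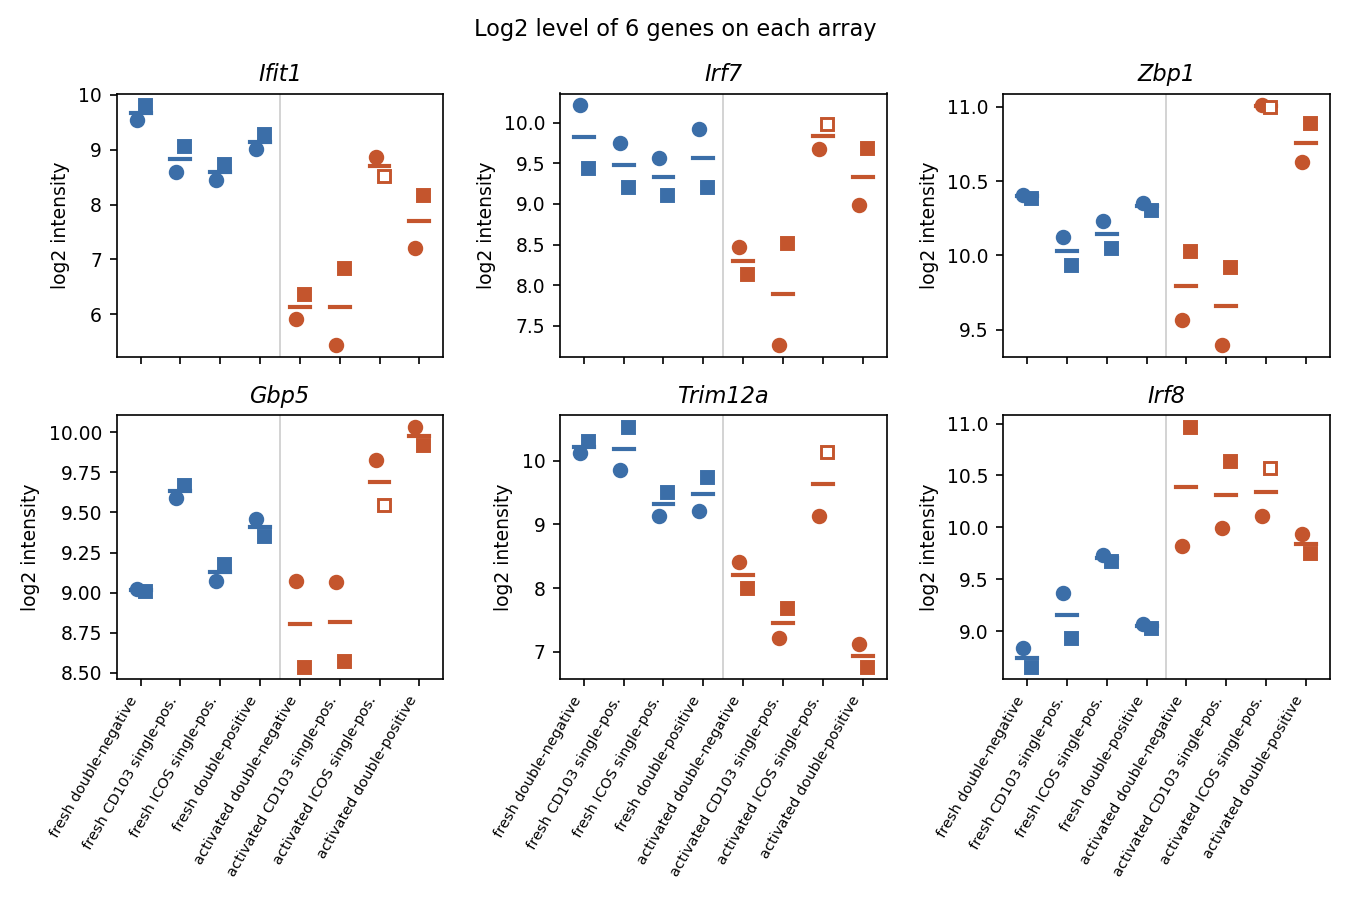
Log2 level (y axis) of example members on every array by subset, fresh and activated (x axis); circles are replicate 1, squares are replicate 2, the open square is the array with low Foxp3, and a line marks the mean of the 2 arrays. Ifit1 in activated double-negative and CD103 single-positive cells sits between 5.43 and 6.84, below all its other values.

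The ISG15 system was represented by Usp18, which removes ISG15 from proteins and restrains type I interferon receptor signalling. In fresh cells it was at 10.92 and 10.34 in double-negative and 10.21 and 10.15 in CD103 single-positive cells, against 9.18 and 9.34 in ICOS single-positive and 9.33 and 9.15 in double-positive cells, with no overlap. Activated levels were 10.38 and 10.63, 10.98 and 10.46, 9.76 and 11.32 and 8.87 and 9.64. In the ICOS single-positive pair the 11.32 belongs to the array with low Foxp3; the other 3 activated ICOS-positive arrays were below all activated ICOS-negative ones. Usp18 was 2.23-fold lower in fresh ICOS-positive cells (SE 0.30 log2, adjusted p = 0.0443). The call passed in 4 of 16 fits that each left out 1 array, those without an activated ICOS-positive array, and had an adjusted p of 0.00351 in limma without the array with low Foxp3. Without it Usp18 was also lower in activated ICOS-positive cells (-1.11, adjusted p = 0.0142). Usp18 thus ran against the 18 members that were higher in activated ICOS-positive cells.

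Of the 5 ubiquitin and ADP-ribose enzymes, Trim12a, Trim30a and Parp14 fell in ICOS-negative cells (14.1% of all genes did). Trim12a also fell in the average of the ICOS-positive subsets (9.03%), although its activated ICOS single-positive arrays (9.134 and 10.135) were not below the fresh ones. Of the 5 enzymes, 0 passed for the difference (6.72%). Trim12a was at 10.13 and 10.31 in fresh double-negative, 9.85 and 10.53 in CD103 single-positive, 9.13 and 9.50 in ICOS single-positive and 9.21 and 9.75 in double-positive cells, and its activated levels are given above. The lowest arrays were the activated CD103 single-positive and double-positive ones, so Trim12a split the activated subsets by CD103, while 18 members split them by ICOS. It fell by 2.37 in ICOS-negative cells (SE 0.24, adjusted p = 2.50e-05) and by 1.11 in ICOS-positive cells (adjusted p = 0.0111 in limma), the latter lost without fresh ICOS single-positive replicate 2. Trim12a has another probe set shared with related symbols, and its paralogs may hybridise to the one used. Trim30a, of the same family, was at 11.27 and 11.36 in fresh double-negative, 11.22 and 11.42 in CD103 single-positive, 11.09 and 11.26 in ICOS single-positive and 11.43 and 11.65 in double-positive cells. After activation it was at 10.40 and 10.78 in double-negative, 10.03 and 10.77 in CD103 single-positive, 11.40 and 11.74 in ICOS single-positive and 10.84 and 11.09 in double-positive cells. All ICOS-positive arrays were above all ICOS-negative arrays among the activated, by 0.77 on average (adjusted p = 0.018 in limma). Parp9 and its partner Dtx3l passed in neither class on activation, and Dtx3l was higher in activated ICOS-positive cells (0.48).

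Of the 5 guanylate-binding and immunity-related GTPases, which attack the vacuoles of intracellular microbes, Gbp3, Gbp4, Gbp5 and Gbp7 fell in ICOS-negative cells (14.1% of all genes did). Gbp5 and Irgm1 rose in ICOS-positive cells (5.57% of all genes did). Gbp5 was at 9.02 and 9.01 in fresh double-negative, 9.59 and 9.67 in CD103 single-positive, 9.07 and 9.18 in ICOS single-positive and 9.46 and 9.35 in double-positive cells. After activation it was at 9.07 and 8.54, 9.07 and 8.57, 9.83 and 9.55 and 10.03 and 9.92. In ICOS-positive cells every activated array was above every fresh one; in ICOS-negative cells the values of activated replicate 1 lay among the fresh values. The changes were -0.51 (adjusted p = 0.0126) and 0.57 (adjusted p = 0.0161), and their difference was 1.08 (SE 0.19, adjusted p = 0.00674 in limma). Of these the fall was lost without activated CD103 single-positive replicate 2, and the rise without fresh or activated ICOS single-positive replicate 1 or fresh double-positive replicate 2.

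Gbp3 separated the subsets by CD103 before activation. Its fresh levels were 9.26 and 9.41 in double-negative and 9.50 and 9.61 in ICOS single-positive cells, against 10.04 and 10.41 in CD103 single-positive and 9.91 and 10.09 in double-positive cells, with no overlap, and the difference by CD103, 0.67, had an adjusted p of 0.538 in limma and of 0.0168 without the array with low Foxp3. Activated levels were 8.96 and 8.72 in double-negative, 8.91 and 9.05 in CD103 single-positive, 10.50 and 8.87 in ICOS single-positive and 10.28 and 10.32 in double-positive cells. The array with low Foxp3 had 8.87, at the level of the ICOS-negative arrays, and its partner had 10.50. Without it Gbp3 rose in ICOS-positive cells by 0.62 (adjusted p = 0.00554), and with it the change was 0.21 and did not pass. The fall of Gbp3 in ICOS-negative cells (-0.87) passed in 10 of 16 fits that each left out 1 array, and was lost without either fresh double-negative or either activated CD103 single-positive array, fresh CD103 single-positive replicate 2 or activated double-negative replicate 2. Gbp7 was at 11.53 and 9.94 in activated ICOS single-positive cells, again lower on the array with low Foxp3. Members of this family resemble each other in sequence, so probe sets may read paralogs as well.

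Of the 3 antigen processing genes 2 rose in ICOS-negative cells (14.5% of all genes rose) and 1 in ICOS-positive cells (5.57%). The immunoproteasome subunits Psmb8 and Psmb9 rose in ICOS-negative cells, Psmb9 rose in ICOS-positive cells too, and none of the 3 genes fell. Psmb9 was at 9.86 and 10.13 in fresh double-negative, 9.81 and 9.99 in CD103 single-positive, 9.95 and 9.97 in ICOS single-positive and 9.76 and 9.98 in double-positive cells. After activation it was at 10.37 and 10.30, 10.21 and 10.47, 10.80 and 10.52 and 10.55 and 10.25, so every activated array was above every fresh array. Its rise was 0.39 (adjusted p = 0.0189) without ICOS and 0.62 (adjusted p = 0.00354 in limma) with it. Its call in ICOS-negative cells was lost without fresh double-negative or CD103 single-positive replicate 1, activated double-negative replicate 1 or activated CD103 single-positive replicate 2. Tap1, the peptide transporter, was nearly level over all 16 arrays. It was at 11.63 and 11.37 in fresh double-negative, 11.58 and 11.52 in CD103 single-positive, 11.51 and 11.39 in ICOS single-positive and 11.65 and 11.49 in double-positive cells. The activated values were 11.47 and 11.31, 11.32 and 11.43, 11.80 and 11.75 and 11.64 and 11.54. Tap1 passed only as higher in activated ICOS-positive cells (0.30, adjusted p = 0.0491; 0.0834 without the array with low Foxp3).

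The chemokine Cxcl10, which draws Cxcr3-bearing cells, went with ICOS in fresh cells. It was at 6.43 and 6.36 in fresh double-negative and 6.94 and 6.75 in CD103 single-positive cells, against 8.20 and 7.88 in ICOS single-positive and 7.92 and 7.69 in double-positive cells, with no overlap. The difference of 1.30 had an adjusted p of 0.0783 in limma, and of 0.0024 without the array with low Foxp3. Activated levels were 6.03 and 5.85 in double-negative, 6.35 and 6.45 in CD103 single-positive, 8.19 and 5.97 in ICOS single-positive and 8.01 and 6.88 in double-positive cells. Replicates of the activated ICOS-positive groups were far apart, and the changes on activation, -0.45 and -0.66, did not pass. Without the array with low Foxp3 the change in ICOS-positive cells was -0.10, and the difference in change by ICOS was 0.35 instead of -0.21; neither passed. Then Cxcl10 was higher in activated ICOS-positive cells (1.65, adjusted p = 0.00298, against 1.09 and 0.13 with all arrays, in limma).

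Related signalling genes were read from lists in the same fit, where 14.1% of all genes fell and 14.5% rose in ICOS-negative cells, 9.03% fell and 5.57% rose in ICOS-positive cells, and 2.06% had a more positive and 4.65% a more negative change with ICOS. Several of the counts below are near these shares. Of 7 interferon receptor chains (and related cytokine receptors), 4 fell on activation in ICOS-negative cells: Il27ra (-1.20), Il10rb (-0.86), Ifnar1 (-0.82) and Ifnar2 (-0.77). In ICOS-positive cells Ifngr1 rose (1.004) and Il27ra fell (-0.71). The difference passed for Ifngr1 (0.96), Il10rb (0.82), Ifnar2 (0.78) and Ifnar1 (0.75), each more positive with ICOS. In fresh cells Ifngr2 (-1.04), Ifnar1 (-0.40) and Ifnar2 (-0.39) were lower in the ICOS-positive subsets (2.43% of all genes). Of 5 receptor-proximal kinases and Stat proteins measured, Jak1 (-0.88), Tyk2 (-0.43) and Stat4 (-0.37) fell and Stat3 rose (0.42) in ICOS-negative cells, and Jak1 (0.62) and Stat4 (0.71) passed for the difference. Of 8 negative regulators, Socs1 (1.01), which blocks Jak kinases, and the phosphatase Ptpn2 (0.75) rose in ICOS-positive cells, Pias1 fell in both, and Irf2, a repressor, fell in ICOS-negative cells (-0.63) and passed for the difference (0.57). Of 12 upstream sensors and adaptors the endosomal RNA sensor Tlr7 fell in both (-2.777 and -1.499) and passed for the difference (1.28), while the DNA sensor Cgas rose in ICOS-negative cells (0.62) and its difference was -0.80. Without the array with low Foxp3, Il27ra (adjusted p = 0.0584) and Ptpn2 (adjusted p = 0.0999) no longer passed in ICOS-positive cells, nor Jak1 (adjusted p = 0.0607) and Tlr7 (adjusted p = 0.075) for the difference, in limma.

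Of 14 interferon ligand genes (with Il27), 1 (Ifnz, -0.85) fell in ICOS-negative cells and 0 passed in ICOS-positive cells or for the difference, where 0 of 14 is to be read against 6.72% of all genes. Ifng, interferon gamma, was at 8.37 and 8.42 on the fresh ICOS single-positive arrays and between 6.73 and 7.06 on the other fresh arrays. After activation it was at 6.83 and 10.16 in double-negative, 6.51 and 7.37 in CD103 single-positive, 9.16 and 8.30 in ICOS single-positive and 8.27 and 7.96 in double-positive cells. The double-negative pair differed by more than any fresh pair, and the ICOS-positive arrays were above both CD103 single-positive arrays.

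Other gene groups moved with the ICOS difference. Of 11 cell cycle genes all 11 had a more negative change in ICOS-positive cells (median -3.25; 4.65% of all genes did). The fresh ICOS-positive arrays had a median relative level of -0.60 to 0.32 against -3.13 to -2.77 on the fresh ICOS-negative arrays, while all activated arrays lay between 1.27 and 1.89. Among 10 genes of naive and central T cells, 3 had a more positive change (2.06% of all genes) and the median was 1.12 (0.54 without the array with low Foxp3). Of 9 CD8 T and NK cell genes 1 had, with a median of 0.59; the range of the list's median level was -0.28 to -0.09 on activated ICOS-negative and -0.24 to 0.85 on activated ICOS-positive arrays, the 0.85 being the array with low Foxp3. None of 9 activated conventional CD4 T cell genes (median 0.05), 16 myeloid and dendritic cell genes (0.16) or 8 B cell genes (0.06) passed for that difference. In the fit without the array with low Foxp3, 2 of the 9 conventional CD4 T cell genes passed as more positive with ICOS, Il17a (4.68, against 3.59 with all arrays) and Csf2 (1.98, against 1.49). Of 14 Treg core genes 0 passed with all arrays (median -0.43), and without that array 1 was more negative, Tnfrsf4 (-0.50), and the median was 0.29. On the activated arrays the median relative level of the conventional CD4 T cell list was -0.70 to 0.06 in ICOS-negative and 0.29 to 1.60 in ICOS-positive cells, that of the myeloid and dendritic cell list -0.22 to -0.07 and -0.12 to 0.01, and that of the B cell list -0.38 to -0.04 and -0.26 to -0.06. The part of any of these in the interferon-stimulated genes was not tested.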

How the data were processed

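The authors deposited log2 intensities, 1 for each of 35556 probe sets on each of 16 arrays (values 3.02 to 14.2, array medians 6.26 to 6.48). RMA and the affy package are named in the submitters' processing notes, without version or settings. RMA values are relative and include background, so folds of dim genes are understated. Probe sets with exactly 1 symbol (21789) gave 19938 genes, each read from its brightest probe set. The array annotation paired probe sets with genes, and all 41 measured members matched RefSeq (GRCm38.p6) by gene identifier.

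limma 3.58.1 in R 4.3.3 modelled all 16 arrays in 1 fit with 8 group means (8 residual degrees of freedom), for 11 comparisons; 5 comparisons within CD103 classes, and of 1 class with the other, were added after seeing the data. It was tested on simulated data. Benjamini-Hochberg adjustment ran over 19938 genes with a threshold of 0.05. Groups are those of the labels. The members, the gene lists and the comparisons were chosen with earlier results of these data known. The members named are the largest differences that passed in each direction (up to 8 for ICOS in fresh cells, for activation in the ICOS classes and for their difference, up to 4 elsewhere) and, with their value on every array, the 2 of each role with the largest difference by ICOS; other members are named to account for the whole set. Alternatives were the replicate number as a block, a second quantile normalization, a filter on dim genes, the mean of a gene's probe sets, an intensity trend, robust variances, array weights, the compared arrays alone, and leaving out each array.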

Additional observations from a re-analysis of the deposited data

Results flagged for a closer look

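For 11 members the change on activation differed between the ICOS-positive and the ICOS-negative subsets by a test of that difference in limma, each more positive with ICOS. The difference was 2.44 (log2) for Ifit1, 1.69 for Irf7, 1.34 for Xaf1, 1.13 for Zbp1, 1.08 for Gbp5, 0.99 for Oasl2, 0.97 for Dhx58, 0.93 for Oasl1, 0.88 for Samhd1, 0.80 for Irf9 and 0.63 for Irf1. All but Irf7, Dhx58 and Xaf1 passed in each of 16 fits that left out 1 array. Xaf1 passed in 11 and was lost without fresh ICOS single-positive replicate 1 or 2, fresh double-negative or double-positive replicate 2, or activated double-positive replicate 2. Irf7 passed in 6, which were those without fresh or activated double-positive replicate 1, fresh double-negative or CD103 single-positive replicate 2, activated ICOS single-positive replicate 1 or activated CD103 single-positive replicate 2. Dhx58 passed in 6, which were those without an activated double-negative or CD103 single-positive array or without replicate 1 of an activated ICOS-positive subset. The differences of these 11 members are averages over CD103. Among CD103-negative subsets they were larger than among CD103-positive ones, except for Gbp5 (0.78 and 1.38). For Ifit1 they were 3.62 and 1.25, and for Oasl2 1.83 and 0.15. Of the 11 only Gbp5 passed among CD103-positive subsets, and with all arrays no dependence on CD103 passed. Groups of 2 arrays are too small for a search for outlying samples.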

How the results depend on the processing

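Among the named members' differences by ICOS and on activation, none of the 45 that passed changed sign under any alternative run on them, while 16 of 63 that did not pass did under at least 1, as did the medians over members of 3 of 11 comparisons. Of the alternative counts of changed members 217 were within 1.5 times the reported count, 15 above and 36 below. With the replicate number as a block, changed members were 9 for ICOS in fresh cells (reported 4), 3 for CD103 in activated cells (1), 19 for activation in ICOS-positive cells (11), 17 for the difference by ICOS (11) and 8 in ICOS single-positive cells (4); for the other counts it stayed within 1.5 times. Same-numbered arrays deviated together in 27 of 28 pairs of groups (correlation over 0.1, median 0.23, range -0.02 to 0.75). The design text names 2 independent experiments and does not tie the replicate numbers to them. The main fit therefore leaves the number out, and a spread shared by same-numbered arrays stays in its p-values. A member that did not pass in it may pass with the block. With only the compared arrays in the fit the counts were 8 for ICOS and 4 for CD103 in fresh cells (reported 0), 9 for ICOS (18) and 0 for CD103 in activated cells, and 0 in ICOS single-positive cells. A second quantile normalization gave 2 for CD103 in activated cells and 2 in ICOS single-positive cells, and an intensity trend gave 2 and 1. Within CD103-negative subsets the count for ICOS in activated cells was 9; within CD103-positive subsets it was 0, and 1 for the difference by ICOS. Leaving out 1 array at a time gave 1 to 8 for ICOS and 0 to 3 for CD103 in fresh cells, 8 to 18 and 0 to 8 in activated cells, 22 to 29 (reported 28) for activation in ICOS-negative and 6 to 13 in ICOS-positive cells, and 8 to 14 for their difference. By subset it gave 11 to 23 (19) in double-negative, 9 to 18 (16) in CD103 single-positive, 0 to 4 in ICOS single-positive and 4 to 13 (11) in double-positive cells. For CD103 in activated cells the 8 came without activated ICOS single-positive replicate 1. In fresh comparisons, leaving out an activated array keeps the differences as they were and alters only the pooled spread. The cause of the other changes was not tested. Having 2 arrays per group, a mean level below the median of all values for 3 members (Mx1, Mx2 and Rsad2) and probe sets shared by paralogs limit what these values show.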

Other observations

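A further list of 48 measured interferon-response genes outside the 41 members was read in the same fit. On activation 24 fell (14.1% of all genes did) and 4 rose (14.5%) in ICOS-negative cells, with Ifi203 (-3.74), Ms4a4b (-3.35), Slfn5 (-2.94) and Ddx60 (-2.66) falling most. In ICOS-positive cells 9 fell (9.03% of all genes) and 5 rose (5.57%). The change was more positive with ICOS for 11 (2.06% of all genes) and more negative for 0 (4.65%), led by Ms4a4b (2.39), Ddx60 (1.77), Slfn5 (1.59) and Slfn1 (1.57), and 43 of 48 differences were positive. Among activated cells 19 were higher in the ICOS-positive subsets (1.94% of all genes) and 0 lower (5%). Without the array with low Foxp3 the counts were 24 and 3, 8 and 7, 10 and 0, and 18 and 0. Among those that rose were interferon-induced transmembrane genes, singled out after their values were seen: Ifitm3 rose by 2.55 without ICOS and 3.67 with it, and Ifitm2 by 2.42 and 2.49, while Ifitm1 rose by 2.40 in ICOS-positive cells. Pml rose in both (0.92 and 0.72), Trafd1 in ICOS-negative (0.38) and Iigp1 in ICOS-positive cells (0.85). On activated double-negative replicate 2 Ifitm3 was at 11.25, against 8.29 on replicate 1. No explanation was tested for these values.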
